A study of Mus musculus with 16 samples.

Results

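The genes described here are 10 neuronal genes that were chosen by their genotype or drug response in these same libraries: Golga7b, Nrsn1, Lhfpl4, Tmem130, Tmem145, Celsr3, Mapk8ip2, Rundc3a, Cdk5r1 and Cdk5r2. A row for 9 of them was found by symbol among the 21220 genes of the authors' normalized table. Cdk5r2 has no row there and was read from the count files. The same 9 were among the 17125 genes that passed the filter on low counts. Since the genotype and drug responses of these libraries chose the genes, their own differences are given below as a description, without p-values. Tests are reported for related genes that are not among the 10, from lists that were also written with earlier results of these data known.

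The study cultured the organ of Corti, the hair cell epithelium of the inner ear, from C57BL/6 mice at postnatal day 0, and sequenced polyadenylated RNA after 3.5 days in vitro. Wild-type cultures and cultures with the genotype Rest(+/deltaExon4), heterozygous for an allele of Rest that lacks exon 4, received either 2 nM FK228 or the solvent alone, 0.1% DMSO. Both were applied from day 1 to 1.5 and from day 3 to 3.5. The 4 groups are therefore wild type in solvent, wild type with FK228, heterozygous in solvent and heterozygous with FK228, with 4 libraries each. All groups share the strain, the age and the medium, and the solvent stands as the control within each genotype. The labels restrict the deletion to no cell type, so every cell of a heterozygous culture is taken to carry it. A library is a pool of 6 to 8 cultures. Separate litters are not named for the pools, and the p-values below therefore reflect pool-to-pool spread alone, which may be technical.

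Gene counts summed to 12361027 to 23611571 per library. Wild-type solvent libraries (17462876 or more) were deeper than heterozygous solvent libraries (15674930 or less). Rest itself was at 81.4 ± 5.42 CPM (mean ± SD, n = 4; read counts scaled to a library of 1000000, with TMM factors) in wild-type and 88.3 ± 7.64 CPM in heterozygous cultures with solvent, and reads summed over the gene do not show whether exon 4 is present. The hair cell markers Pou4f3 (33.2 ± 4.76 CPM in wild type with solvent) and Otof (67.2 ± 9.72 CPM) were present, as the labelled tissue implies. The neuronal neurofilament gene Nefl (132 ± 32.1 CPM) was present too. In heterozygous cultures with solvent these genes were at 25.9 ± 6.68, 28.5 ± 3.34 and 53.4 ± 15.7 CPM. Other hair cell markers were low in wild type with solvent, such as Atoh1 (1.99 CPM) and Gfi1 (2.32 CPM).

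REST is a zinc finger repressor that binds the RE1 element of many neuronal genes and recruits histone deacetylases, and so keeps those genes low outside neurons. In hair cells and neurons an alternative exon of Rest, when spliced into the transcript, interrupts the repressor, and the deleted exon 4 is that exon. FK228, also known as romidepsin, is a cyclic depsipeptide that inhibits class I histone deacetylases. The genes encode membrane proteins (Nrsn1, Lhfpl4, Tmem130, Tmem145, Celsr3) and an accessory protein of palmitoyltransferases (Golga7b). The others encode neuronal signalling adaptors (Mapk8ip2, Rundc3a) and activating subunits of the kinase CDK5 (Cdk5r1, Cdk5r2).

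The sequences shown first are the best matches to the RE1 element in these genes, since REST is the altered protein. The search used the letters TTCAGCACC, then 2 free bases, then GGACAG, on both strands, and asked for at least 13 of the 15 letters. RefSeq promoters (GRCm38.p6, 250 bases before to 50 after the start site) were at hand for 8 of the 10 genes, 9 promoters in all, and 1 of the 9 held a match, that of Celsr3. Among all 32851 promoters 0.143% held one. The Celsr3 promoter, chr9:108825795-108826094 on the plus strand, is printed with the matching window in capitals, which begins 127 bases before the RefSeq start site. That start lies upstream of the first base of Celsr3 in GENCODE.
Celsr3 promoter: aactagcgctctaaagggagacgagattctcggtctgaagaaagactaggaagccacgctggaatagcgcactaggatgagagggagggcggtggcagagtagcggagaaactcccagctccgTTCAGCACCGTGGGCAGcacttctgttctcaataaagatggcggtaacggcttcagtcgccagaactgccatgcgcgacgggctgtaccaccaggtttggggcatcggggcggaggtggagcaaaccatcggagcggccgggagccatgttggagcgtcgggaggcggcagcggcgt

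Within GENCODE M21 protein-coding transcripts (GRCm38), 5 of the 10 genes held a match, against 2.39% of 21901 protein-coding genes and 3.05% of the 13721 genes whose longest coding transcript lay in the same range of length (2046 to 11571 bases). The windows are shown so that they can be compared letter by letter. Capitals mark the letters that equal the searched element, and each window is read on the strand of the match.
Celsr3: TTCAGCACCgtGGgCAG
Golga7b: gTCAGCACCgtGGACAG
Lhfpl4: aTCAGCACCatGGAaAG
Rundc3a: cTCAGCACCtcGGAgAG
Cdk5r1: TgCAGaACCttGGACAG
Cdk5r2: cTCAGCACCtcGGACAa
The Golga7b window, at chr19:42255963-42255979 on the plus strand in exon 3 of a transcript and within its 5′ UTR, matched 14 letters, as did the Celsr3 promoter window (chr9:108825918-108825934). At least 14 letters were found in 0.429% of protein-coding genes. The other 4 windows matched 13 letters. They lie in the coding sequence of Lhfpl4 in exon 2 (chr6:113193907-113193923), the 5′ UTR of Rundc3a in exon 1 (chr11:102393452-102393468), the 5′ UTR of Cdk5r1 in exon 1 (chr11:80477031-80477047) and, on the minus strand, the 3′ UTR of Cdk5r2 in exon 1 (chr1:74857257-74857273). Nrsn1, Tmem130, Tmem145 and Mapk8ip2 reached at most 11 letters in a coding transcript and at most 10 in a promoter. Introns and distant sequence were not searched. A match is a run of letters and not a measured binding site. Matches were found in Golga7b, Lhfpl4 and Rundc3a, which were called lower with genotype in solvent. They were also found in Celsr3 and Cdk5r1, which were not called, and in Cdk5r2, which was not tested for expression. The genes without a match (Nrsn1, Tmem130, Tmem145 and Mapk8ip2) were called lower. Binding of REST to these genes was not tested.

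The promoters of these genes were rich in CpG. Their GC content ran from 52.3% to 71.7%, with 4 to 33 CpG, where the median over all promoters was 52.7% and 7 CpG. The lowest of both belonged to the more upstream of the 2 Golga7b promoters, and the other Golga7b promoter had 68.7% GC and 23 CpG. On GRCm38 the genes lie on 9 different chromosomes, with only Rundc3a and Cdk5r1 on the same one (chromosome 11). Within 1000000 bases of 5 of the 10 genes lay another gene that differed between genotypes in solvent, and 34% of all genes have such a neighbour.

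Golga7b and Nrsn1 were above 6 CPM in each wild-type library and below 2 CPM in each heterozygous library, with and without the drug. Golga7b (chr19:42247574-42270348, plus strand) encodes a relative of the golgin GOLGA7 that binds and stabilizes the palmitoyltransferase ZDHHC5. Its level in wild-type solvent libraries 1 to 4 was 13.8, 11.1, 7.57 and 7.87 CPM. In heterozygous solvent libraries 1, 2, 4 and 5 it was 0.140, 0.327, 0.269 and 1.23 CPM, so every heterozygous library lay far below every wild-type one. With FK228 the wild-type libraries 1, 2, 4 and 7 held 11.9, 11.2, 7.49 and 16.6 CPM, and the heterozygous libraries 2 to 5 held 0.832, 1.79, 0.743 and 1.65 CPM. The groups of the same genotype overlapped, and the genotypes remained apart with the drug. Over all genes tested, the genotypes did not overlap for 6.23% in solvent and 8.84% with FK228. Between genotypes the log2 fold change was -4.34 ± 0.49 (SE of the edgeR model; 20.2-fold) in solvent and -3.23 ± 0.39 with FK228. The drug effect was 1.33 ± 0.54 in heterozygous and 0.23 ± 0.32 in wild-type cultures.

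Nrsn1 (chr13:25252040-25270502, minus strand) encodes neurensin, a membrane protein of small vesicles in growing neurites. Wild-type solvent libraries 1 to 4 held 8.63, 8.03, 7.52 and 6.44 CPM, and the heterozygous ones (1, 2, 4 and 5) 0.280, 0.131, 0.875 and 0.685 CPM. With FK228 the wild-type libraries 1, 2, 4 and 7 were at 11.4, 8.76, 9.12 and 11.4 CPM, each above every wild-type solvent library. The heterozygous FK228 libraries 2 to 5 were at 0.454, 1.45, 1.76 and 0.393 CPM and overlapped the heterozygous solvent libraries. Between genotypes the log2 fold change was -3.94 ± 0.44 (15.4-fold) in solvent and -3.29 ± 0.37 with FK228, and that of the drug in heterozygous cultures was 1.06 ± 0.49.

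The drug responses of both genes in heterozygous cultures rested on few reads, 2 to 18 per solvent library for Golga7b and 2 to 13 for Nrsn1. Golga7b was called higher with FK228 (adjusted p under 0.05), but the call was lost when heterozygous solvent library 1 (1.04), 2 (1.18) or 4 (1.13) was left out, and when FK228 library 3 (1.10) or 5 (1.18) of that genotype was. Heterozygous solvent library 5 held 18 of the 29 reads of its group, and without it the drug difference was 2.30. The call was also lost with limma voom (1.44) and when only the groups compared were fitted (1.33). Nrsn1 was not called by edgeR on all libraries but was by DESeq2 (1.07). By edgeR it was called when heterozygous solvent library 4 (1.49), or FK228 library 2 (1.30) or 5 (1.31) of that genotype, was left out, and its value was lowest without FK228 library 4 (0.66).

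**Figure D1:**
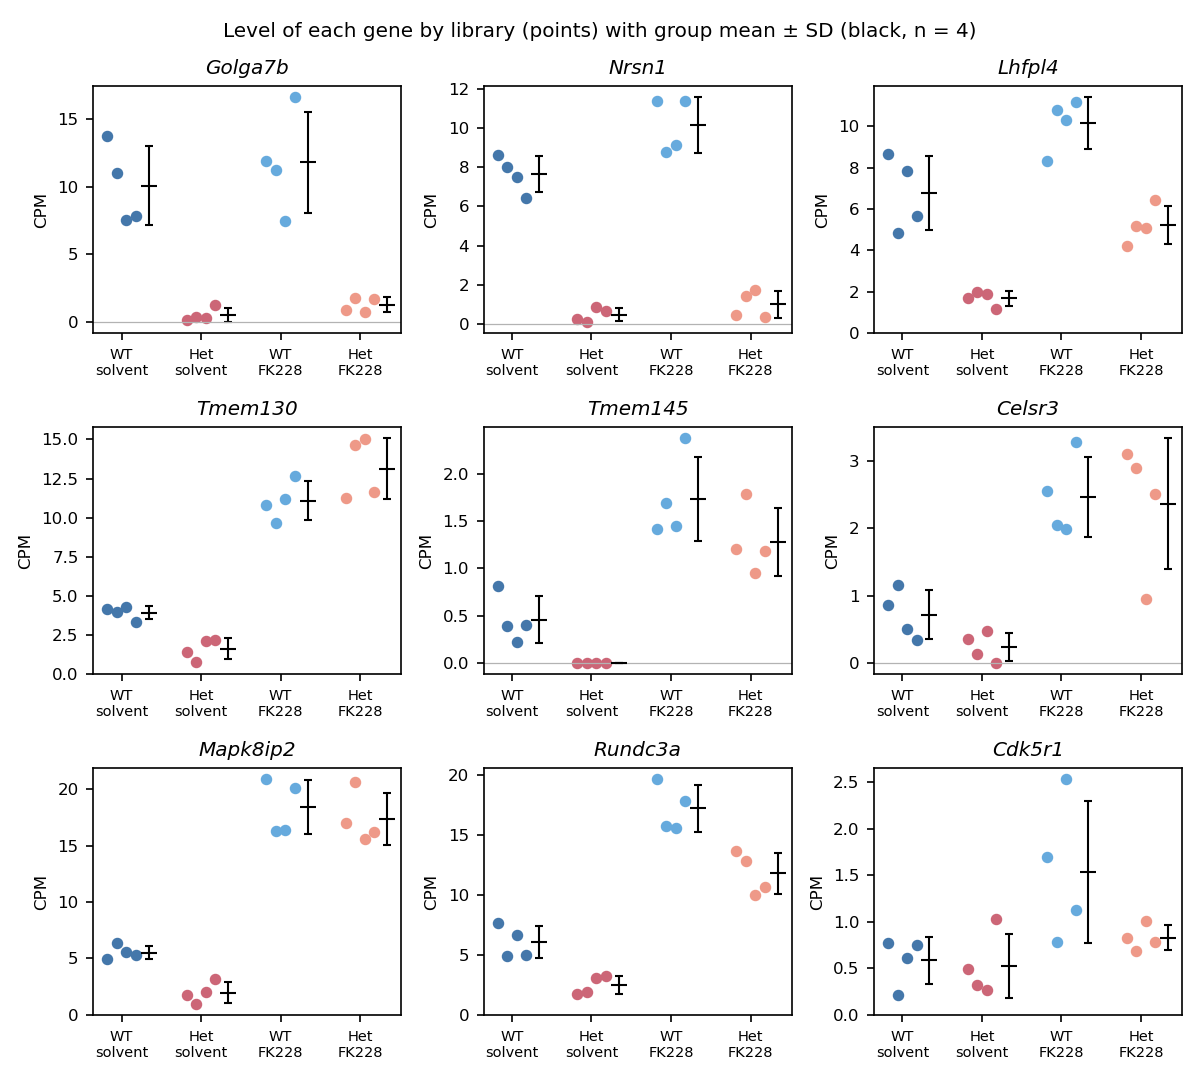
Level of 9 genes in CPM (vertical axis, linear) in each of the 16 libraries, by group; points are libraries in order of replicate number, and black bars are the mean ± SD of 4 libraries. Golga7b and Nrsn1 stay below 2 CPM in all 8 heterozygous libraries, while Tmem130, Mapk8ip2 and Rundc3a are higher in each FK228 library than in any solvent library. Within a genotype, FK228 and solvent libraries did not overlap for 42.6% (heterozygous) and 44.7% (wild type) of all 17125 genes.

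Lhfpl4 (chr6:113168090-113195384, minus strand) encodes a tetraspan protein that links GABA-A receptors with a neuroligin at inhibitory synapses. Wild-type solvent libraries 1 to 4 held 8.68, 4.84, 7.85 and 5.69 CPM and heterozygous solvent libraries 1, 2, 4 and 5 held 1.68, 1.96, 1.89 and 1.16 CPM. With FK228, wild-type libraries 1, 2, 4 and 7 were at 8.34, 10.8, 10.3 and 11.2 CPM and heterozygous libraries 2 to 5 at 4.23, 5.17, 5.07 and 6.45 CPM. Every heterozygous FK228 library was thus above every heterozygous solvent library, within the range of wild type in solvent or just below it, and below every wild-type FK228 library. The log2 fold change was -2.01 ± 0.23 between genotypes in solvent, 1.64 ± 0.23 for the drug in heterozygous cultures, 0.58 ± 0.20 for the drug in wild type and -0.96 ± 0.20 between genotypes with FK228. The drug call in wild type was lost without wild-type solvent library 2 (0.45) or 4 (0.51) or wild-type FK228 library 7 (0.54), and with spike-in scaling (0.45), and the genotype call with FK228 without heterozygous FK228 library 2 (-0.87) or wild-type FK228 library 7 (-0.91).

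Tmem130 (chr5:144735915-144761818, minus strand) encodes a membrane protein related to PMEL and GPNMB. It was at 4.16, 3.96, 4.26 and 3.33 CPM in wild-type solvent libraries 1 to 4 and at 1.40, 0.786, 2.09 and 2.19 CPM in heterozygous solvent libraries 1, 2, 4 and 5. With FK228 it reached 10.8, 9.67, 11.2 and 12.7 CPM in wild-type libraries 1, 2, 4 and 7 and 11.3, 14.6, 15 and 11.6 CPM in heterozygous libraries 2 to 5. The genotypes did not overlap in solvent and did overlap with the drug. The log2 fold change was -1.28 ± 0.24 between genotypes in solvent, 3.02 ± 0.23 for FK228 in heterozygous and 1.49 ± 0.20 in wild-type cultures, and 0.25 ± 0.19 between genotypes with FK228. The genotype call in solvent was lost when only those groups were fitted (-1.27).

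Tmem145 (chr7:25306106-25316195, plus strand), which encodes a membrane protein with several membrane spans, had no read in any of the 4 heterozygous solvent libraries. Wild-type solvent libraries 1 to 4 held 0.814, 0.385, 0.224 and 0.402 CPM, from 4 to 18 reads. With FK228 the wild-type libraries 1, 2, 4 and 7 held 1.42, 1.69, 1.45 and 2.38 CPM and the heterozygous libraries 2 to 5 held 1.21, 1.79, 0.946 and 1.18 CPM. A floor of 3 reads over the heterozygous solvent group was set (0.0508 CPM, counting error only). The pooled level of wild type in solvent (0.477 CPM) was 9.38-fold above that floor. The pooled level of heterozygous cultures with FK228 (1.29 CPM) was 25.3-fold above it. The floor bounds the heterozygous solvent level alone, and the error of the other levels is not in these folds. In wild type the drug difference was 1.88 ± 0.40.

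Celsr3 (chr9:108826320-108852969, plus strand) encodes an atypical cadherin that guides axon tracts. It was at 0.859, 1.16, 0.505 and 0.345 CPM in wild-type solvent libraries 1 to 4 and at 0.350, 0.131, 0.471 and 0 CPM in heterozygous solvent libraries 1, 2, 4 and 5. These groups overlapped, and the log2 fold change of -1.57 ± 0.64 was not called, so Celsr3 was lower in its mean but is not counted among the lowered genes. With FK228 it was at 2.55, 2.05, 1.99 and 3.28 CPM in wild-type libraries 1, 2, 4 and 7 and at 3.10, 2.90, 0.946 and 2.52 CPM in heterozygous libraries 2 to 5. The drug differences were 3.27 ± 0.62 in heterozygous and 1.77 ± 0.47 in wild-type cultures.

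Mapk8ip2 (chr15:89453913-89464468, plus strand) encodes a scaffold that holds kinases of the JNK pathway together and links them to kinesin. Wild-type solvent libraries 1 to 4 held 4.93, 6.33, 5.55 and 5.29 CPM and heterozygous solvent libraries 1, 2, 4 and 5 held 1.75, 0.982, 2.02 and 3.15 CPM. With FK228 it rose to 20.9, 16.3, 16.4 and 20.2 CPM in wild-type libraries 1, 2, 4 and 7 and to 17.0, 20.7, 15.6 and 16.2 CPM in heterozygous libraries 2 to 5. The genotypes were apart in solvent and overlapped with the drug. The log2 fold change was -1.48 ± 0.23 between genotypes in solvent, 3.14 ± 0.23 for FK228 in heterozygous and 1.74 ± 0.20 in wild-type cultures, and -0.08 ± 0.19 between genotypes with FK228.

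Rundc3a (chr11:102393403-102402555, plus strand) encodes a RUN domain protein that binds the small GTPase RAP2. It was at 7.64, 4.95, 6.67 and 5.0 CPM in wild-type solvent libraries 1 to 4 and at 1.75, 1.90, 3.10 and 3.22 CPM in heterozygous solvent libraries 1, 2, 4 and 5. With FK228 it was at 19.7, 15.8, 15.6 and 17.8 CPM in wild-type libraries 1, 2, 4 and 7 and at 13.7, 12.8, 10 and 10.7 CPM in heterozygous libraries 2 to 5. Here the genotypes stayed apart with the drug, at -0.55 ± 0.18, without a call by edgeR and with one by limma voom. The other log2 fold changes were -1.29 ± 0.21 between genotypes in solvent, 2.24 ± 0.21 for FK228 in heterozygous and 1.50 ± 0.19 in wild-type cultures.

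Cdk5r1 and Cdk5r2 encode the activating subunits of the neuronal kinase CDK5. Cdk5r1 (chr11:80477023-80481184, plus strand) was low in all groups, at 0.768, 0.220, 0.617 and 0.747 CPM in wild-type solvent libraries 1 to 4 and at 0.489, 0.327, 0.269 and 1.03 CPM in their heterozygous counterparts 1, 2, 4 and 5. These groups overlapped, with a log2 fold change of -0.16 ± 0.50, so Cdk5r1 was not called lower in heterozygous cultures, against the description of the group. With FK228 it was at 1.70, 0.786, 2.54 and 1.13 CPM in wild-type libraries 1, 2, 4 and 7 and at 0.832, 0.689, 1.01 and 0.787 CPM in heterozygous libraries 2 to 5. The drug difference in wild type, 1.37 ± 0.45, was called, but not without wild-type solvent library 2 (1.10) or wild-type FK228 library 4 (1.02). Cdk5r2 (chr1:74854934-74857732, plus strand) had 3 reads in all, 1 and 2 in a pair of heterozygous FK228 libraries and 0 in the other 14, so no fold is given. A floor of 3 reads corresponds to 0.0397 CPM in the pooled wild-type solvent libraries.

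Per kilobase of exon, the order of the levels differed between groups. In wild type with solvent Golga7b (3.37 CPM per kb), Nrsn1 (2.74) and Rundc3a (2.06) were highest and Celsr3 (0.0593) lowest of the 9 genes in the normalized table. In heterozygous cultures with solvent the highest were Rundc3a (0.847 CPM per kb) and Tmem130 (0.557), and Golga7b and Nrsn1 were at 0.165 and 0.176. In heterozygous cultures with FK228 Tmem130 (4.52 CPM per kb), Rundc3a (4.01) and Mapk8ip2 (3.05) led, and Golga7b and Nrsn1 were at 0.420 and 0.362.

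The genes thus differed in how far FK228 brought heterozygous cultures toward the level of wild type in solvent. Golga7b went from 4.89% to 12.5% of that level (from 2.44% without heterozygous solvent library 5) and Nrsn1 from 6.44% to 13.2%. Lhfpl4 went from 24.7% to 77.3%. Tmem130, Mapk8ip2 and Rundc3a started at 41.1%, 35.8% and 41.1% and ended above wild type in solvent, at 334%, 315% and 195%, and Celsr3 went from 33.2% to 330%. Expressed as a share of the log2 loss, FK228 regained 31.8% ± 13.8 (SD over the 4 heterozygous FK228 libraries) for Golga7b (38.6% without that library), 22.1% ± 25 for Nrsn1 and 82.3% ± 12.6 for Lhfpl4, against 230% ± 16.3 for Tmem130, 207% ± 11.7 for Mapk8ip2 and 176% ± 16.6 for Rundc3a.

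**Figure D2:**
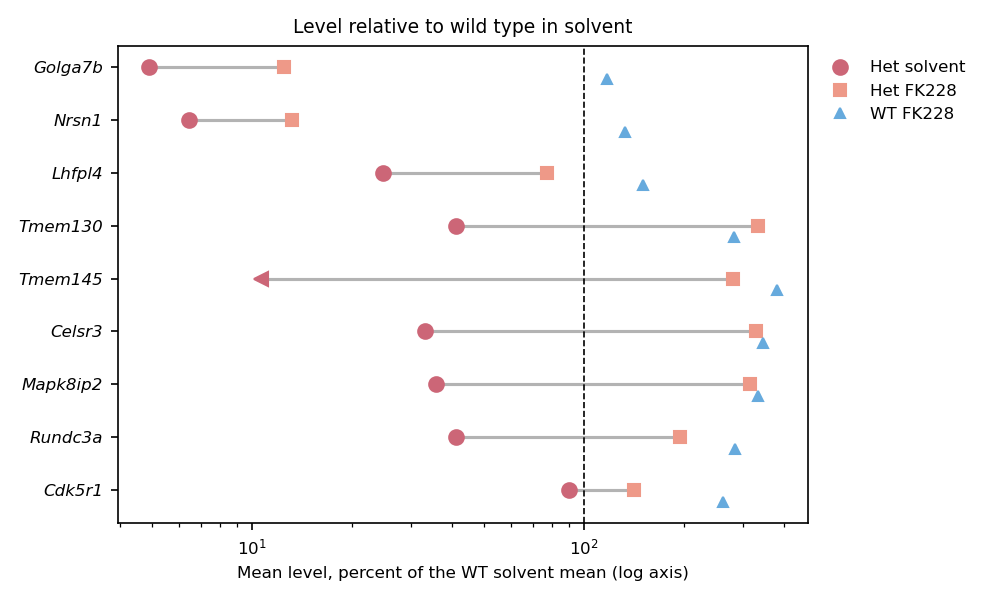
Mean level of each gene as a percent of the mean of wild type in solvent (horizontal log axis; dashed line at 100), in heterozygous cultures with solvent (circles) and FK228 (squares) and in wild type with FK228 (triangles); the left-pointing triangle of Tmem145 is the upper bound from a floor of 3 reads. Golga7b and Nrsn1 end at 12.5% and 13.2%, Lhfpl4 at 77.3% and Tmem130 at 334%.

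A level above wild type in solvent is not the same as the level of wild type under the drug, because FK228 raised several of these genes in wild type too. Set against wild type with FK228, heterozygous cultures with FK228 held 10.6% of Golga7b, 9.98% of Nrsn1, 51.4% of Lhfpl4, 68.5% of Rundc3a, 73.9% of Tmem145, 94.3% of Mapk8ip2, 95.7% of Celsr3 and 119% of Tmem130.

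Counted by edgeR's quasi-likelihood test with adjustment over all 17125 genes, 7 of the 9 genes were lower in heterozygous cultures in solvent, where 0.823% of all genes were. Cdk5r1 and Celsr3 were the others. FK228 was called to raise 7 of 9 in heterozygous cultures (23.8% of all genes) and 7 of 9 in wild type (23.7% of all genes). With FK228 in both genotypes 3 of 9 were lower in heterozygous cultures (Golga7b, Nrsn1 and Lhfpl4; 0.928% of all genes). Between heterozygous FK228 and wild-type solvent libraries, 5 of 9 were higher (24.9% of all genes) and 2 of 9 lower in the former (25.9% of all genes). Nothing is read from these shares, since these contrasts chose the genes, and several contrasts share groups. The median log2 fold change of the 9 was -1.57 between genotypes in solvent, 2.24 for the drug in heterozygous and 1.49 in wild-type cultures, where that of all genes was -0.01, 0.00 and -0.01. The first 2 medians are the same with Tmem145 at its bound.

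The difference of the drug effects between the genotypes (interaction) was called for 0 of the 9 genes by edgeR, for 2 by DESeq2 (Tmem130 at 1.53 and Mapk8ip2 at 1.39 on the log2 scale) and for 0 by limma voom. Of all genes edgeR called 0.0234%, and nothing is read from these counts either. Without heterozygous solvent library 5 Mapk8ip2 was called (1.72). For the 8 genes that had reads in every group, the point estimates ran from -0.72 for Cdk5r1 to 1.53 for Tmem130. They use the values that chose the genes, so nothing is read from their sign.

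**Figure D3:**
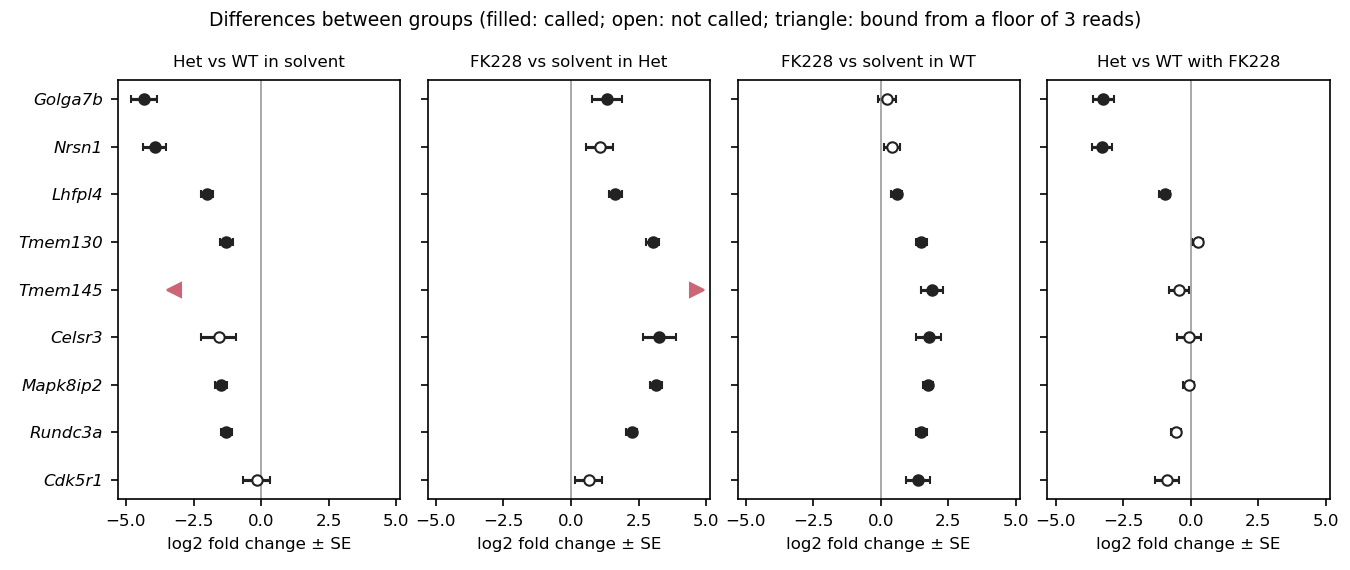
Log2 fold change ± SE (edgeR model) of 9 genes in 4 comparisons; filled points are called, open points are not, and triangles are bounds for Tmem145, which had no read in heterozygous solvent libraries. Golga7b and Nrsn1 lie near -4 in solvent and near -3 with FK228, and Tmem130, Mapk8ip2 and Celsr3 lie near 0 with FK228.

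Among all 141 genes lower in heterozygous cultures in solvent, 77 (54.6%) were higher with FK228 in heterozygous cultures, 51 (36.2%) were higher with FK228 in wild type, and 55 (39.0%) were also lower between genotypes with FK228. Against wild type in solvent, heterozygous cultures with FK228 were higher for 31 (22%) and lower for 73 (51.8%) of the 141. These comparisons share libraries. Of the 7 described genes among the 141, 6 were higher with FK228 in heterozygous cultures and 3 lower between genotypes with FK228, so each outcome had many other examples.

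All of these differences are relative to the bulk of transcripts. With library sizes set by the ERCC spike-in RNA in place of TMM factors, the median over all genes moved to -0.18 between genotypes in solvent and -0.74 with FK228. The drug medians moved to -0.72 (heterozygous) and -0.16 (wild type), and that of heterozygous FK228 against wild-type solvent libraries to -0.89. On that scale 7 of the 9 genes were again called lower in heterozygous cultures in solvent, and FK228 in heterozygous cultures gave 2.31 for Tmem130, 2.43 for Mapk8ip2 and 2.62 for Celsr3, while Golga7b (0.64) lost its call. Heterozygous cultures with FK228 were then level with wild type in solvent for Rundc3a (0.09, no call) and lower for Lhfpl4 (-1.26, called), and Tmem145 (0.63) and Celsr3 (0.87) lost their calls. In that comparison 12217 of all 17125 genes were called lower with spike-in scaling. With FK228 in both genotypes 8 of the 9 were lower in heterozygous cultures on that scale, as were 12761 of all 17125 genes. The 8 included Mapk8ip2 (-0.80) and Tmem130 (-0.49), the latter above the median of all genes (-0.74).

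In bulk RNA, fewer cells of a type and less RNA per cell cannot be told apart. Of 18 tested markers of spiral ganglion neurons, which send their fibres into the cultured tissue, 6 were lower (0.823% of all genes) and 0 higher in heterozygous cultures in solvent, and 6 were higher and 6 lower with FK228 in wild type (8 and 4 in heterozygous cultures). None of the 19 listed was at 0 in every library, though Neurod1 was at 0.0871 ± 0.0770 CPM in wild type with solvent. The summed level of the list was 1412 to 1747 CPM for wild-type and 1256 to 1639 CPM for heterozygous solvent libraries, and 1292 to 1667 and 1154 to 1295 CPM with FK228. Most of that sum is Gata3 and Isl1, which cells of the sensory epithelium express too. Both were then left out, a choice made after the values were seen. The range became 414 to 644 CPM for wild type and 231 to 336 CPM for heterozygous solvent libraries, which do not overlap. With FK228 it was 540 to 874 and 408 to 521 CPM. The largest parts of this sum were Nefl (132 and 53.4 CPM in wild-type and heterozygous cultures with solvent) and Nefm (123 and 55.7 CPM). Stmn2 (33.4 and 29.3 CPM) differed little, and the mean of Gap43 (35.4 and 39.0 CPM) was higher in heterozygous cultures. The part of this shift of the sum in the levels of the described genes was not tested. Of 15 hair cell markers 1 was lower in heterozygous cultures in solvent, and 0 of 14 supporting cell, 9 glial and 12 macrophage markers were called there by edgeR. With FK228, where 24.7% of all genes were lower in heterozygous and 25.3% in wild-type cultures, 12 of 12 macrophage markers were lower in each genotype, and so were 6 of 15 hair cell markers. Supporting cell markers were lower for 8 of 14 in heterozygous and 7 of 14 in wild-type cultures, and glial markers for 6 and 5 of 9.

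The closest relatives of these genes were tested next, on the same libraries and with earlier results of these data known, so that the tests are no independent evidence. Between genotypes in solvent, 1 of the 7 paralogs tested was called, Lhfpl5. Golga7, the widely expressed relative of Golga7b, was at 83.8 ± 3.43 CPM in wild type with solvent and 81.2 ± 9.16 CPM in the heterozygous cultures (log2 fold change -0.04 ± 0.08, edgeR adjusted p = 0.920). Nrsn2, the other neurensin, was at 1.20 ± 0.581 and 0.639 ± 0.395 CPM (-0.91 ± 0.40, adjusted p = 0.366). Mapk8ip1 gave -0.17 ± 0.11 (adjusted p = 0.637), Rundc3b 0.11 ± 0.30 (adjusted p = 0.950), Celsr1 0.41 ± 0.22 (adjusted p = 0.527) and Celsr2 -0.50 ± 0.15 (adjusted p = 0.0960). Lhfpl5, a subunit of the mechanotransduction complex of hair cells, was at 24.2 ± 4.01 and 14.2 ± 4.71 CPM (-0.77 ± 0.19, adjusted p = 0.0473). It lost that call in 13 of 16 fits that each left out a library, and kept it without solvent library 4, or FK228 library 2 or 5, of the heterozygous cultures (-1.01 to -0.62 over the 16). Lhfpl3 was too low to be tested.

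With FK228 the paralogs went different ways. Nrsn2 rose 8.04-fold in heterozygous cultures, from 0.639 ± 0.395 to 5.22 ± 0.725 CPM (3.01 ± 0.38, adjusted p = 2.68e-06), and 3.93-fold in wild type (1.97 ± 0.33, adjusted p = 8.02e-05). Mapk8ip1 rose 1.80-fold in heterozygous (0.85 ± 0.11, adjusted p = 4.73e-06) and 1.71-fold in wild-type cultures (0.77 ± 0.11, adjusted p = 1.13e-05), though its call in heterozygous cultures was lost with spike-in scaling (0.14). Rundc3b rose in wild type (0.85 ± 0.29, adjusted p = 0.0203; 0.68 without a call under spike-in scaling), a call lost without wild-type solvent library 1 (0.76) or 4 (0.80) or FK228 library 1 (0.73). Lhfpl5 fell in both, at -0.53 ± 0.20 (adjusted p = 0.0387) and -0.54 ± 0.19 (adjusted p = 0.0280). The call in heterozygous cultures was lost without solvent library 4 (-0.29) or 5 (-0.53) or FK228 library 2 (-0.39) or 4 (-0.52), and that in wild type without solvent library 1 (-0.42) or FK228 library 2 (-0.52), 4 (-0.50) or 7 (-0.53). Golga7, Celsr1 and Celsr2 passed the test in neither genotype, though Golga7 was called lower in heterozygous cultures with spike-in scaling (-0.83).

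**Figure D4:**
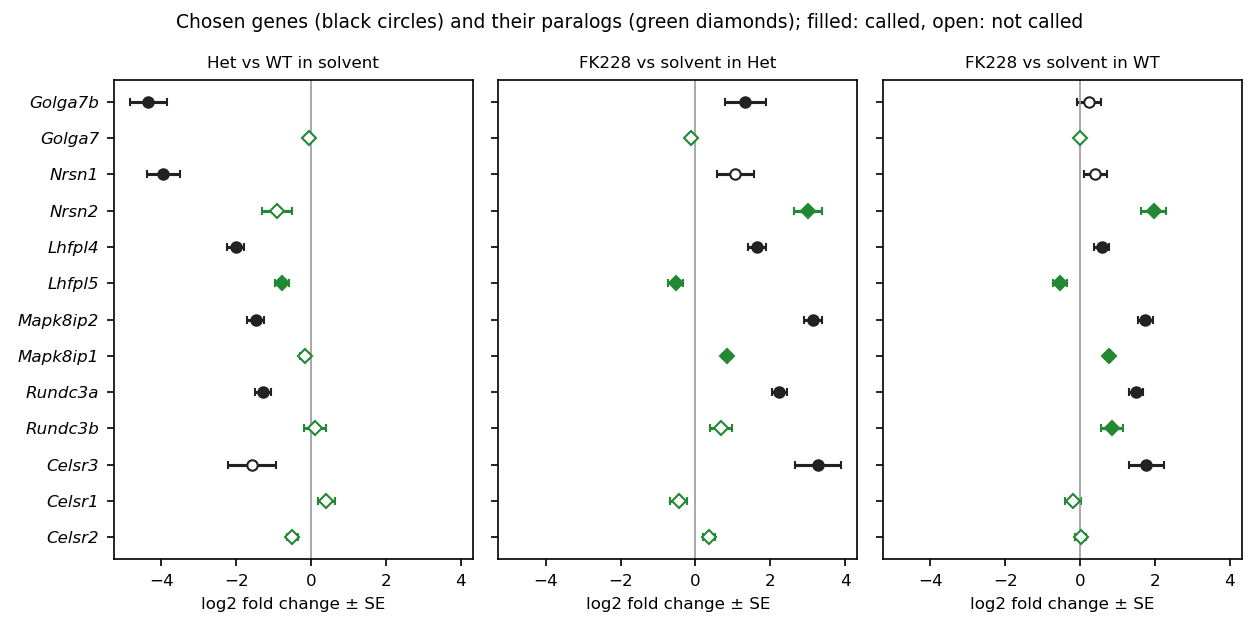
Log2 fold change ± SE of 6 of the genes (black circles) and their 7 tested paralogs (green diamonds) in 3 comparisons; filled symbols are called. In solvent the paralogs lie nearer 0 than the genes, with Golga7 at -0.04 against Golga7b at -4.34. Nothing is read from that difference, since responses in these same libraries chose the genes. Nrsn2 rises with FK228 by 3.01 in heterozygous cultures.

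Beyond the paralogs, 7 lists of partner genes were written from the pathways of these proteins, 101 genes of which 98 were tested. Between genotypes in solvent 3 of the 98 were higher (1.2% of all genes) and 2 lower (0.823% of all genes), and 19 had an unadjusted p under 0.05. Zdhhc2, a palmitoyltransferase, was higher at 50.4 ± 14.3 against 11.1 ± 2.29 CPM (2.19 ± 0.35, adjusted p = 0.00189), and kept its call in each of 16 fits that left out a library. With FK228 it was again higher in heterozygous cultures (1.50 ± 0.35, adjusted p = 0.0316), whose 4 libraries spread from 10.9 to 55.1 CPM. That call was lost, among other fits, without heterozygous FK228 library 4 and without wild-type FK228 library 1 or 7. Vangl1, a planar polarity protein, was higher at 0.45 ± 0.09 (adjusted p = 0.0112; not called without wild-type solvent library 4), and Tmem87a at 0.62 ± 0.14 (adjusted p = 0.0215; not called in 5 of 16 fits that left out a library, heterozygous 4 or 5, or wild-type 1, 3 or 4, all in solvent). Kif5a, the neuronal kinesin heavy chain, was lower at 4.64 ± 1.10 against 8.23 ± 0.976 CPM (-0.83 ± 0.21, adjusted p = 0.0498), a call lost in 10 of 16 such fits, and kept without solvent library 5 or FK228 library 2, 4 or 5 of heterozygous cultures, or FK228 library 4 or 7 of wild type. The fifth call was Lhfpl5.

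FK228 raised 23.8% and lowered 24.7% of all genes in heterozygous cultures and 23.7% and 25.3% in wild type, and the counts of each list below stand beside these shares. In the list of the JNK pathway, which Mapk8ip2 scaffolds, 10 of 18 rose and 1 fell in heterozygous cultures and 11 rose and 1 fell in wild type, with a median log2 fold change of 0.37 and 0.49. With spike-in scaling 2 rose and 8 fell in heterozygous cultures (median -0.35), and 6 rose and 1 fell in wild type (median 0.33). Both medians lay above those of all genes on that scale (-0.72 and -0.16). So did both medians of the planar polarity (-0.58 and -0.06), palmitoyltransferase (-0.41 and 0.02) and RUN domain (-0.53 and 0.09) lists described below. The LHFPL list (-0.55) did so in heterozygous cultures. Both medians of the CDK5 (-0.92 and -0.41) and neurensin (-0.88 and -0.33) lists lay below those of all genes. Kif5a rose 3.15-fold in heterozygous (1.66 ± 0.21, adjusted p = 4.24e-06) and 2.31-fold in wild-type cultures (1.21 ± 0.20, adjusted p = 6.6e-05). Kif5c, another neuronal kinesin, rose 3.10-fold (1.63 ± 0.19, adjusted p = 1.6e-06) and 2.80-fold (1.48 ± 0.18, adjusted p = 3.31e-06). The kinase gene Mapk9 rose by 0.57 ± 0.07 and 0.64 ± 0.07, or -0.14 in heterozygous cultures with spike-in scaling. Map2k7, an upstream kinase, fell by 0.56 and 0.83 on the log2 scale (adjusted p = 0.000737 and 1.42e-05).

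In the CDK5 list 3 of 19 rose and 8 fell with FK228 in heterozygous cultures, and 4 rose and 8 fell in wild type (1 and 14, and 2 and 8, with spike-in scaling). The kinase gene Cdk5 itself rose modestly, by 0.61 ± 0.08 (adjusted p = 4e-06) and 0.53 ± 0.08 (adjusted p = 1.95e-05), with -0.09 in heterozygous cultures under spike-in scaling. Between genotypes in solvent it gave 0.00 ± 0.08 (adjusted p = 1). Mapt, which encodes the microtubule protein tau, a CDK5 substrate, rose 6.82-fold in heterozygous cultures, from 8.19 ± 1.32 to 56.0 ± 4.26 CPM (adjusted p = 1.57e-09), and 4.87-fold in wild type (adjusted p = 9.47e-09). Dpysl3, a collapsin response protein, fell 2.26-fold and 2.16-fold (adjusted p = 4.85e-08 and 8.87e-08), and Capn2, a calpain, fell 2.00-fold and 1.93-fold (adjusted p = 1.01e-07 and 1.87e-07).

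The remaining lists were shorter, and with TMM factors they held fewer calls. Of 17 tested LHFPL and inhibitory synapse genes 3 rose and 4 fell in heterozygous cultures and 4 rose and 5 fell in wild type (1 and 8, and 3 and 5, with spike-in scaling). Nlgn3, a neuroligin, rose 2.35-fold and 2.17-fold (adjusted p = 3.04e-07 and 9.87e-07) and Gabra3, a GABA-A receptor subunit, 2.38-fold and 2.33-fold (adjusted p = 0.00831 and 0.00889; 0.55 without a call in heterozygous cultures under spike-in scaling). Lhfpl2 fell 1.72-fold and 1.54-fold (adjusted p = 2.42e-05 and 0.000222). Of 14 planar polarity genes 4 rose and 2 fell in heterozygous cultures, and 5 rose and 2 fell in wild type, where spike-in scaling gave 0 and 8, and 0 and 2. The frizzled gene Fzd6 fell 1.59-fold and 1.82-fold (adjusted p = 7.59e-05 and 5.03e-06). Dvl2, a dishevelled gene, rose 1.66-fold and 1.56-fold, without a call in either genotype under spike-in scaling (0.02 and 0.47).

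Of 11 tested genes that were Golga7 or palmitoyltransferases, 4 rose and 1 fell in each genotype, where spike-in scaling gave 0 and 5 in heterozygous cultures and 1 and 1 in wild type. Zdhhc5, the partner of Golga7b, rose by 0.42 ± 0.09 (adjusted p = 0.000504) and 0.52 ± 0.08 (adjusted p = 5.28e-05), but was -0.30 in heterozygous cultures with spike-in scaling. Of 11 RUN domain and RAP2 genes 3 rose and 1 fell in heterozygous cultures, and 5 rose and 2 fell in wild type (0 and 8, and 0 and 2, with spike-in scaling). Rap2c, a RAP2 GTPase, fell 1.72-fold and 1.59-fold (adjusted p = 0.000375 and 0.00138). Of 8 relatives of the neurensins, TMEM130 and TMEM145 1 rose in each genotype, Nrsn2, and 3 and 4 fell (6 and 3 with spike-in scaling). Among these Gpnmb, which shares a domain with TMEM130 and is abundant in macrophages, fell 1.74-fold and 4.04-fold (adjusted p = 0.00153 and 1.16e-07).

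**Figure D5:**
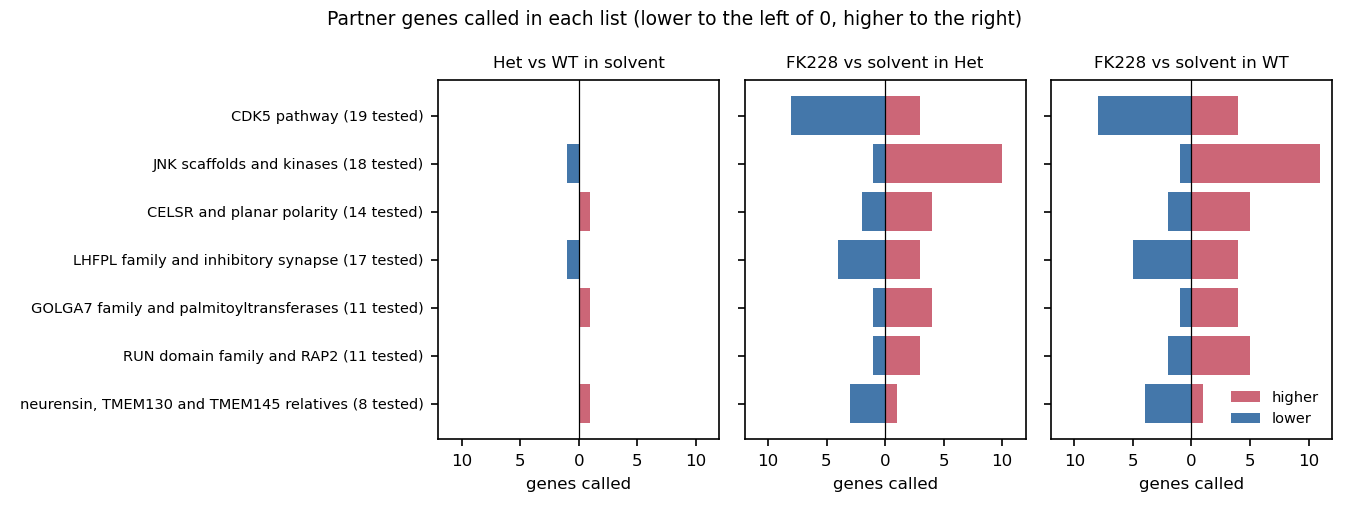
Number of genes called in each of 7 partner lists (bars right of 0: higher; left of 0: lower; library sizes by TMM factors) in 3 comparisons. Genotype in solvent gives 5 calls in all. The JNK list has 10 genes raised by FK228 in heterozygous and 11 in wild-type cultures (23.8% and 23.7% of all genes). With spike-in scaling it has 2 and 6, where 807 and 2008 of all 17125 genes were raised.

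The genes whose profile over the 16 libraries lay closest to the mean profile of the 9 were Tmem179, Syp, A430072P03Rik, Ache and Fam81a, by the root mean square difference of centred log2 CPM (0.29, 0.44, 0.44, 0.47 and 0.49, with a median of 1.20 over 17116 genes). Syp encodes the synaptic vesicle protein synaptophysin and Ache acetylcholinesterase. Tmem179 was at 6.15 ± 2.30 CPM in wild type with solvent and 1.51 ± 0.846 CPM in the heterozygous cultures, and at 12.7 ± 2.52 and 6.69 ± 0.349 CPM with FK228. Among the 9 genes Rundc3a (0.36) and Lhfpl4 (0.43) lay closest to their common mean, and Golga7b and Nrsn1 (1.28 each) lay farther from it than the median gene.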

How the data were processed

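Read counts per gene of 16 libraries, 4 per group, were deposited by the authors. The submitters' processing notes name STAR 2.5.2a and the build GRCm38.p4. The deposited normalized signal table holds counts divided by DESeq2 size factors, and its values gave whole reads for 100% of entries (tolerance 0.001 reads). The unstranded counts were used. Reads assigned to no gene (10.4% to 20.8%) were left out. Levels are CPM. Tests were edgeR 4.0.16 quasi-likelihood fits over all 4 groups (R 4.3.3, TMM factors, filterByExpr with a minimum count of 10 and total of 15, 17125 of 48709 genes), with Benjamini-Hochberg adjustment over all genes, and a gene was called at an adjusted p under 0.05. Alternatives used DESeq2 1.42.0, limma 3.58.1 voom, other scalings and filters, and left-out libraries. The fits were tested on simulated data. The described genes and the partner and marker lists were chosen with earlier results of these data known. Named partners are the paralogs, Cdk5 and, per list, the 2 called genes with the smallest p in each direction, of which the text gives examples. Replicates of a group differed by more than counting noise.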

Additional observations from a re-analysis of the deposited data

How the results depend on the processing

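Of the described genes, 7 were called by genotype in solvent, also with each library left out; only the groups compared gave 5, and the stricter filter, which tests fewer genes, gave 6. For FK228 in heterozygous cultures the count was 7 (6 to 8 over left-out libraries; 5 with the stricter filter, 8 with DESeq2), and for FK228 in wild type 7 (5 to 7; 4 with the stricter filter). Between genotypes with FK228 it was 3 (2 to 3 over left-out libraries), 4 with voom and 8 with spike-in scaling. For the interaction it was 0 (0 to 1), and 2 with DESeq2 and 2 with spike-in scaling. Spike-in scaling called 12761 of all 17125 genes lower by genotype with FK228. For the interaction it called 9 of all genes higher, with the 2 described genes among them, and 4060 lower. Nothing is read from these counts, since these contrasts chose the described genes. Over all genes, 347 were called by genotype in solvent (237 to 384 over left-out libraries; 550 with DESeq2), 366 by genotype with FK228 (188 without wild-type FK228 library 7, up to 421; 638 with DESeq2; 12857 with spike-in scaling) and 4 for the interaction (2 to 6; 29 with DESeq2, 4069 with spike-in scaling, 10 with no filter, 2 with voom). Of the partner genes, 5 were called by genotype in solvent (1 without wild-type solvent library 4, up to 5; 3 with only the groups compared, 2 with the sex mix of the pools as covariate), 57 with FK228 in wild type (35 with spike-in scaling), 2 by genotype with FK228 (0 without heterozygous FK228 library 4, up to 5; 7 with DESeq2, 84 with spike-in scaling, 6 with no filter, 6 with only the groups compared, 4 with voom, 0 with the sex mix covariate) and 0 for the interaction (1 with DESeq2, 27 with spike-in scaling, 1 with no filter). The causes were not tested.

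Spike-in scaling moved the share of higher calls among all genes from 59.4% to 35.1% by genotype in solvent, from 56.6% to 0.747% by genotype with FK228, from 49% to 7% and 48.4% to 30.8% for FK228 in heterozygous and wild-type cultures, and from 75% to 0.221% for the interaction. Among partner genes the share went from 58.3% to 8.06% and from 59.6% to 37.1% for FK228. Under it the FK228 estimate in heterozygous cultures changed sign for Cdk5 (-0.09), Mapk9 (-0.14), Ankrd6 (-0.05), Zdhhc5 (-0.30), Rufy2 (-0.15), Rufy3 (-0.33), Zdhhc14 (-0.39) and Plekhm1 (-0.39). The median over all genes was -0.72 there, and a changed sign alone is not a call that the gene fell. Of the other partner values under spike-in scaling, 53 kept their side of the threshold, 17 lost a call and 3 gained one. Over all alternatives together these numbers were 1914, 162 and 19. Reads recovered from the normalized table, an alternative chosen after seeing the data, again gave 347 calls by genotype in solvent.

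The replicate numbers gave no sign of pairing: 2 of 17 same-numbered pairs correlated above 0.1 (-0.23 to 0.17), against 13 of 79 other pairs (-0.28 to 0.35). Among the 16 libraries, 1 matched best with its own number. With so few pairs this check cannot exclude a pairing. With the replicate block, 211 genes were called by genotype in solvent, 107 with FK228 and 0 for the interaction, and 1 partner gene in each of the first 2. The Lhfpl4 calls for FK228 in wild type (0.59) and genotype with FK228 (-0.94) were lost under the block. Levels under about 1 CPM, as of Tmem145, Cdk5r1 and Celsr3, rest on few reads.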
